A study of Mus musculus with 36 samples.

Results

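White adipocytes store energy as triglyceride in a single large lipid droplet, release it as fatty acids and glycerol when catecholamines raise cAMP, and secrete hormones such as adiponectin. PPARγ, a nuclear receptor, and the C/EBP transcription factors drive their differentiation and hold the mature state. The results below describe the untreated mouse adipocytes of the series, and ask which genes and programmes were higher or lower in them than in untreated macrophages, myotubes and hepatocytes. They were chosen by their labels: 3 of the 36 RNA-seq libraries were adipocytes given PBS, and each of the 3 other cell types also had 3 PBS libraries, so that 12 libraries were compared. The other 24 libraries came from the same cell types given β-hydroxybutyrate or butyrate (5 mM, 6 h). They entered the filter on low counts, the scaling and the estimate of the spread between libraries. They entered none of the comparisons below, except where β-hydroxybutyrate libraries are said to stand in place of the controls.

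The adipocytes were differentiated in culture from the stromal vascular fraction of inguinal white fat of several pooled wild-type C57Bl/6 males, with a cocktail of IBMX, dexamethasone, insulin and rosiglitazone, a PPARγ agonist. The cocktail was given only at the start of differentiation. It was followed by days in medium with insulin and then by days in medium without these additions. The macrophages were grown from C57Bl/6 male bone marrow in medium conditioned by L929 fibroblasts, the myotubes were fused from hindlimb myoblasts of wild-type C57Bl/6 males, and the hepatocytes were isolated from C57BL/6NHsd males and plated with dexamethasone, which was then withdrawn overnight. All 12 libraries were PBS controls of the 6 h exposure. Culture history, isolation and cell type change together here and cannot be told apart, and for hepatocytes the same holds for the named substrain. The medium of the 6 h exposure also differed between cell types, except between adipocytes and macrophages, for which the paper names the same medium. The adipocyte cultures came from whole stromal cells and were not sorted, and in bulk RNA fewer cells of a type and less RNA per cell cannot be told apart. The labels do not say that libraries of a group came from separate animals or cultures, so p-values measure only the spread between these libraries, which may be technical.

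The control libraries held between 18556853 and 23180421 estimated counts, and the adipocyte ones between 22847334 and 23173818. Of 54347 genes in the table, 15340 had more than 1 CPM (estimated counts scaled to the library total) in at least 6 of the 36 libraries and were tested. In the levels below the total was first adjusted by a TMM factor, which raised the CPM of hepatocytes relative to the other cell types. A gene was called higher in a single comparison at an adjusted p under 0.05 and a log2 fold change over 1. By this rule 3513 genes (22.9% of those tested) were higher and 2795 (18.2%) lower in adipocytes than in macrophages, 3005 (19.6%) were higher and 3142 (20.5%) lower than in myotubes, and 4083 (26.6%) were higher and 2782 (18.1%) lower than in hepatocytes. The 3 comparisons share the same adipocyte libraries. The median log2 fold change over all tested genes was 0.01 against macrophages, 0 against myotubes and 0.04 against hepatocytes.

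The markers of the adipocyte fate matched the label. Plin1, which encodes the perilipin that coats the fat droplet (chr7:79720218-79732903, GRCm38), had 873, 938 and 876 CPM in the 3 adipocyte libraries and no more than 0.123 CPM in any of the 9 other libraries. Adipoq, the gene of adiponectin (chr16:23146536-23158028), had 678, 838 and 747 CPM, against at most 0.254 CPM elsewhere. Adrb3, the β3-adrenergic receptor (chr8:27225776-27250616), had 292, 356 and 328 CPM, and its highest level in another library was 0.861 CPM. No library of another cell type came near the adipocyte range of these 3 genes. Pparg (chr6:115360951-115490399) was also detected in the other cell types: its 262, 266 and 261 CPM in adipocytes stood beside means of 34.3 ± 1.40 CPM in macrophages, 1.56 ± 0.561 in myotubes and 19.5 ± 0.313 in hepatocytes (SD, n = 3, as for each mean below). Adipocytes still exceeded macrophages, the next highest, 7.68-fold (adjusted p = 2.25e-24).

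The 250 bases upstream of the RefSeq start of Plin1 and of a RefSeq start of Pparg are shown as examples of windows that hold letters of the C/EBP motif. They were picked after the values were seen, because each window held 2 matches, and the windows of Adipoq and of the 2 other starts of Pparg held none. The motif searched was TTGCNNAA on both strands, and its matches are in capitals in the 2 lines, which run 5′ to 3′ on the strand of the gene (GRCm38.p6). In Plin1 the matches begin 187 and 58 bases before the start (chr7:79732777-79733026, minus strand), and in Pparg 215 and 16 bases before it (chr6:115421816-115422065, plus strand).
Plin1: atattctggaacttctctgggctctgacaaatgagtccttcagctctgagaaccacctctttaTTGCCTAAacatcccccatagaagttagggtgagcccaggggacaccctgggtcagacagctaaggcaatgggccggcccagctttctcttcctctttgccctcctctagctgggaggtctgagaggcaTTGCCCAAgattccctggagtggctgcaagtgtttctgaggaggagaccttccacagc
Pparg: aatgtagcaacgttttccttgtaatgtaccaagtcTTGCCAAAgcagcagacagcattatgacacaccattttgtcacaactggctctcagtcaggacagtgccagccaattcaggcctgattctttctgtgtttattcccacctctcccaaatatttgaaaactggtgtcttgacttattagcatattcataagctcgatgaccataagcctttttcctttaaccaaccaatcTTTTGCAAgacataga
A match is a description of letters and not a bound site.

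Markers of the other cell types were then summed in each library. The 14 macrophage markers added up to between 547.2 and 625.8 CPM in adipocytes against 23820 to 24020 CPM in macrophages, and each was detected in the adipocyte libraries. Their sum was 212.3 to 591.8 CPM in myotubes, which overlaps the adipocyte range, and 172.4 to 181.7 CPM in hepatocytes. Mrc1, the mannose receptor, was the highest relative to macrophages (53.4 ± 6.63 against 128 ± 6.94 CPM), and Lyz2, the macrophage lysozyme, was the lowest (166 ± 23.9 against 12749 ± 87.0 CPM). The 12 myotube markers summed to between 5.803 and 7.066 CPM in adipocytes, with the creatine kinase gene Ckm at 0. Of the 12 hepatocyte markers, Ttr, Fgb, Hnf4a, Tat and Serpina1a were at 0 in adipocytes, and the sum of 19.0 to 38.9 CPM was nearly all Cyp2e1 (17.9, 37.9 and 30.7 CPM). None of the 5 lymphocyte markers reached the level needed for the test in any cell type.

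**Figure D1:**
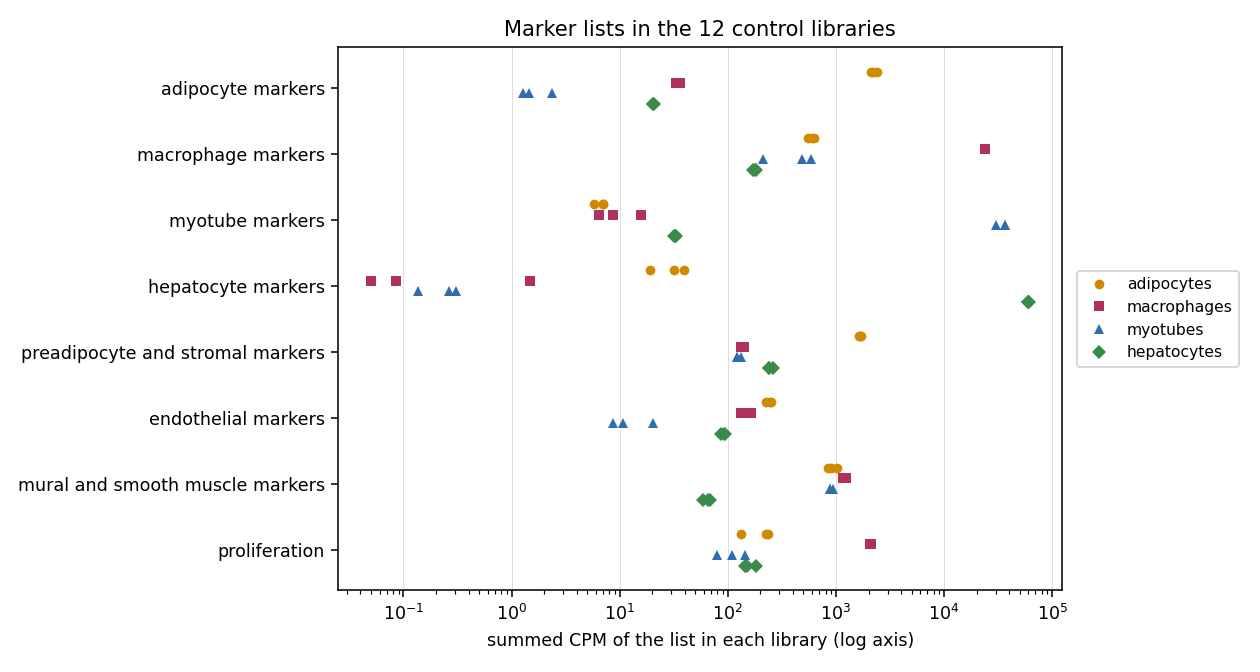
Summed CPM of 8 marker lists (rows) in each of the 12 control libraries (log axis), with 1 symbol per library and a colour per cell type. Adipocyte markers lie between 2105 and 2398 CPM in adipocytes and at most at 36.4 CPM elsewhere. The macrophage list lies between 547.2 and 625.8 CPM in adipocytes and between 212.3 and 591.8 CPM in myotubes.

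Transcripts of stromal cells were a feature of the adipocyte libraries. Of 12 preadipocyte and stromal markers tested, 9 were higher than in each other cell type by the rule given below, beside 11.9% of all tested genes, and 8 of them were at least 4-fold higher. The 8 include Pdgfrb, whose margin of 2.01 on the log2 scale was between 1.98 and 1.99 under 4 of the alternatives, short of 4-fold. Ly6a, which encodes Sca-1 of progenitor cells, had 326, 343 and 331 CPM against at most 6.47 CPM elsewhere, Pdgfra had 163, 218 and 209 CPM, and Dcn, the matrix proteoglycan decorin, 504, 498 and 461 CPM. Of the members that did not pass, Dpp4, a peptidase of progenitor cells, had 1.83 ± 0.347 CPM against 41.9 ± 2.84 CPM in hepatocytes, and Icam1, an adhesion molecule, 15.6 ± 1.81 against 138 ± 7.34 CPM there. Dlk1, the preadipocyte factor lost on differentiation, was at 3.19 ± 0.90 CPM, still higher than elsewhere. Endothelial transcripts were also present, and 6 of 9 endothelial markers were higher than in each other cell type. Pecam1, an endothelial adhesion molecule, had 70.6, 80.3 and 76.5 CPM, whereas Vwf, von Willebrand factor, had 3.99 ± 0.549 CPM against 90.6 ± 3.11 CPM in macrophages, and Kdr, a VEGF receptor, had 35.2 ± 1.32 against 38.6 ± 1.02 CPM there. Of 6 epithelial and mesothelial markers tested, only Lrrn4 (1.30 ± 0.347 CPM) was higher than in each other cell type, and Krt8 was at 0. The part of stromal and endothelial cells in the results below was not tested.

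A stricter rule was used to find what set adipocytes apart. A gene was called higher than in each other cell type when it passed in all 3 comparisons together, with the largest of the 3 p-values taken as its p, adjusted over all tested genes, and when the smallest of the 3 log2 fold changes (its margin) was at least 2, that is 4-fold. By this rule 518 genes were higher in adipocytes (3.38% of those tested), of which 474 were protein-coding, and 78 were lower (0.508%). With no margin asked, 1828 genes (11.9%) were higher and 1023 (6.67%) lower than in each other cell type. The 518 genes took between 12.9 and 13.0% of all counts in adipocytes, against at most 0.684% in any library of another cell type. For 263 of them every other cell type averaged under 1 CPM, and for 18 no count was seen in any of the other 9 libraries. The cell type next highest was myotubes for 237 genes, macrophages for 151 and hepatocytes for 130.

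**Figure D2:**
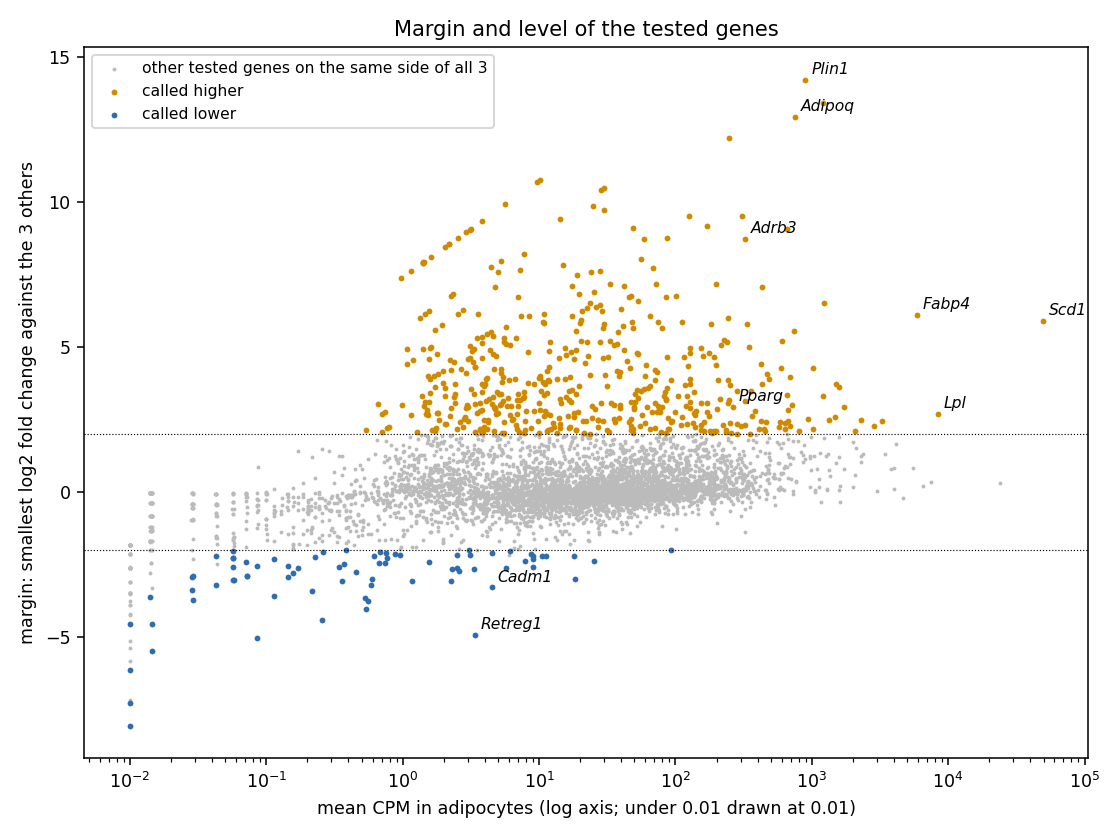
Margin of each tested gene that lay on the same side of all 3 other cell types (the smallest log2 fold change, negative where adipocytes were lower) against its mean CPM in adipocytes (log axis). The 518 genes called higher lie above the upper dotted line at 2 and the 78 called lower below the lower line, and Scd1 is the point farthest right.

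Among the protein-coding genes with at least 10 CPM in adipocytes, the 20 of largest margin held hormones, droplet proteins, receptors and transporters. Cfd, the complement protease adipsin, had 1058, 1369 and 1214 CPM and at most 0.254 CPM in any other library. Retn, which encodes resistin, had 226, 266 and 242 CPM against at most 0.127 CPM, and Adig, adipogenin, 52.1, 48.8 and 44.5 CPM against at most 0.118 CPM. Aoc3, a surface amine oxidase, had 618, 700 and 649 CPM against at most 1.30 CPM in any other library.

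Of the other genes of largest margin, Aqp7, the glycerol channel, had 59.5, 59.8 and 57.2 CPM against at most 0.264 CPM elsewhere. Trarg1, a partner of the insulin-regulated glucose transporter, had 387, 246 and 286 CPM, and its 3 libraries spread 1.57-fold. Acvr1c, the activin receptor ALK7, averaged 86.0 ± 18.2 CPM. Both amino acid carriers Slc7a10 (24.6 ± 2.15 CPM) and Slc1a3 (125 ± 18.7 CPM) were in this group, as were the adenylyl cyclase Adcy5 (170 ± 6.02 CPM), the potassium channel Kcnk3 (68.4 ± 5.33 CPM) and the insulin receptor substrate Irs3 (15.0 ± 1.99 CPM). Tmem45b, Ankef1, Glb1l2 and A530016L24Rik completed it at 14.2 to 56.0 CPM. Scd3 had 30.0 ± 2.05 CPM, but its reads can be split with its abundant neighbour Scd1, so its level is uncertain.

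Scd1, the stearoyl-CoA desaturase that makes monounsaturated fatty acids, had 51134, 46911 and 49853 CPM, on average 5.0% of the counts of an adipocyte library. Per kb of exon it ranked 3 in adipocytes, after the mitochondrial genes mt-Co1 and mt-Co2. Hepatocytes, the next highest, had 833 ± 174 CPM, 59.2-fold less (adjusted p = 4.1e-23). Lpl, the lipase that frees fatty acids from lipoproteins, had 7964, 8853 and 8302 CPM and was 6.51-fold above macrophages. Fabp4, the cytosolic fatty acid carrier, had 5946, 6078 and 5589 CPM and was 68.6-fold above macrophages. The adipocyte libraries lay within 1.11-fold of each other for these 3 genes, far less than the distance to the next cell type. Per kb of exon Cfd ranked 17, Fabp4 18 and Lpl 26 in adipocytes, but with the longest transcript as the length the ranks were 23, 21 and 14, so their order depends on the length used.

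**Figure D3:**
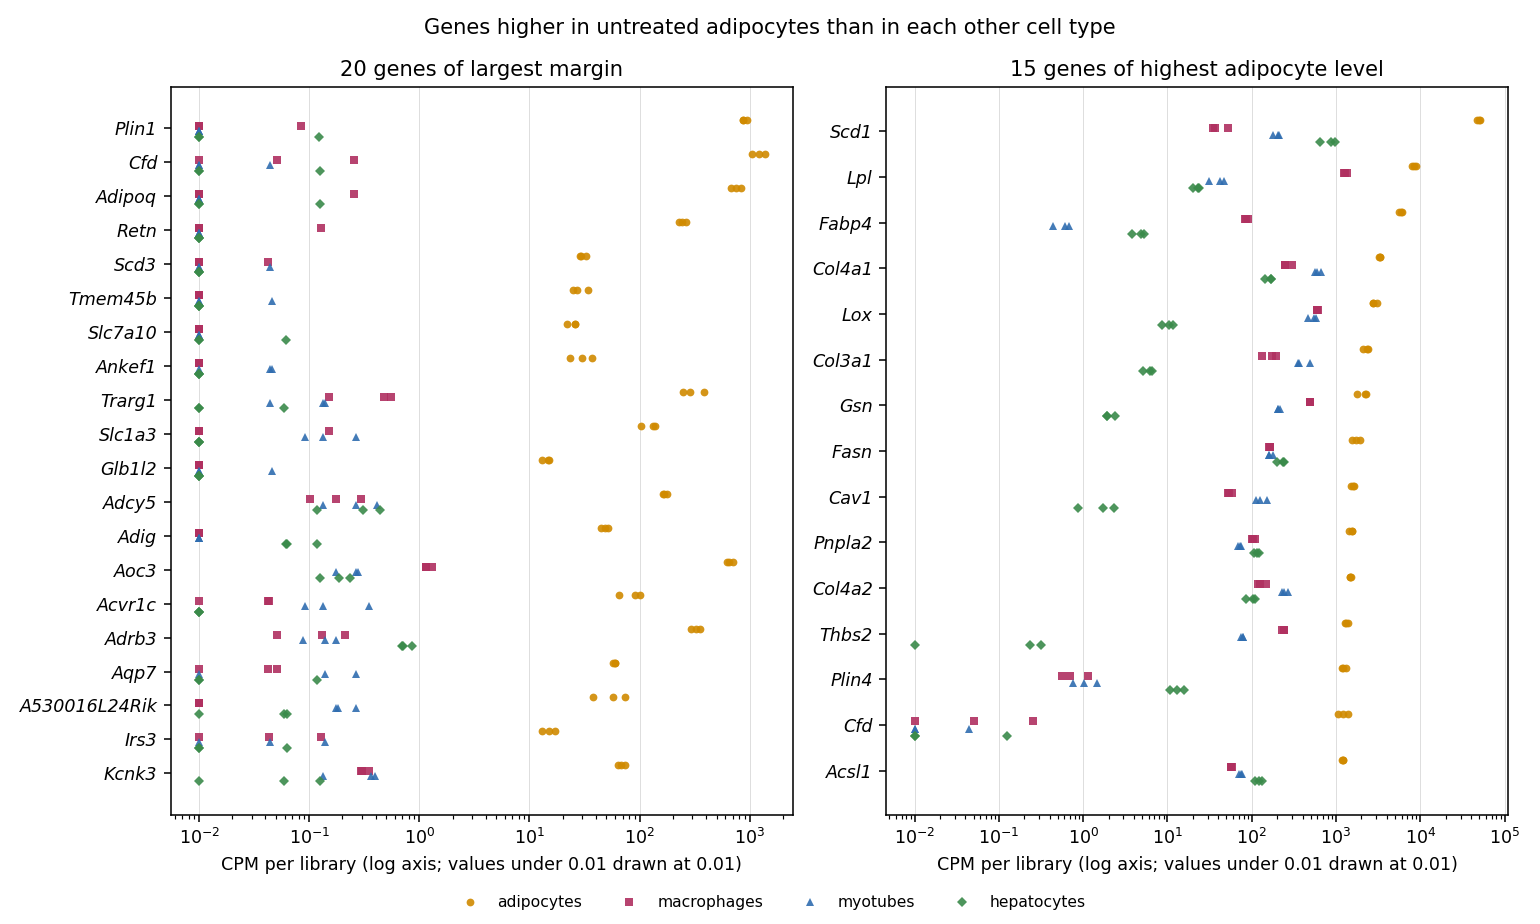
CPM in each of the 12 control libraries (log axis, values under 0.01 drawn at 0.01) for the 20 genes of largest margin and for the 15 of highest adipocyte level among genes called higher than in each other cell type. The adipocyte points lie to the right of all others in every row, and Scd1 reaches 51134 CPM.

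The gene lists described next are to be read beside the shares over all tested genes, 11.9% higher at any margin, 3.38% at least 4-fold higher and 6.67% lower at any margin. The transcription factors of adipogenesis were in part shared. Of 20 tested, 9 were higher than in each other cell type at any margin and none lower. Ebf1 (242, 254 and 238 CPM) and Ebf2 (66.0, 67.7 and 62.6 CPM), early B-cell factors that act in fat cell commitment, exceeded the next cell type 14.5-fold and 12.5-fold, and Zfp423, a preadipocyte determination factor, 46.5-fold. Srebf1, which activates lipid synthesis genes, had 441, 433 and 474 CPM, 4.47-fold above hepatocytes. Cebpa was also high in macrophages (385 ± 8.48 against 303 ± 9.15 CPM, adjusted p = 0.0046), and Cebpb had 144 ± 18.3 CPM against 169 ± 23.3 CPM in hepatocytes. The median log2 ratio of the list was 2.15 against macrophages, 2.33 against myotubes and 0.97 against hepatocytes. These list medians and those below are of log2 ratios of mean CPM. In them a gene with no more than 3 counts over the libraries of the other cell type was set at 3 counts there.

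Lipid droplet and lipolysis genes were mostly higher. Of 15 droplet genes 10 were higher than in each other cell type and none lower, and of 19 lipolysis genes 15 were higher, 13 of them at least 4-fold. Cidec, which fuses droplets into large ones, had 394, 467 and 424 CPM, 134-fold above hepatocytes. Plin4 had 1305, 1167 and 1206 CPM, 92.9-fold above hepatocytes. Plin2, the perilipin of non-adipose cells, was level with hepatocytes at 1165, 863 and 874 against 1054 ± 28.1 CPM, and the values of the groups overlapped.

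The lipases followed in the order in which they cut triglyceride. Pnpla2 (ATGL) had 1434, 1556 and 1526 CPM, 13.2-fold above hepatocytes, Lipe (hormone-sensitive lipase) had 771, 731 and 717 CPM, 46.7-fold above macrophages, and Mgll (monoglyceride lipase) had 367, 358 and 340 CPM, 11.0-fold above myotubes. G0s2, an inhibitor of ATGL, had 230, 215 and 203 CPM, 33.6-fold above myotubes. Of the receptors that control cAMP, the antilipolytic Hcar1 for lactate (19.6 ± 2.93 CPM), Adora1 for adenosine (87.7 ± 9.72 CPM) and Ptger3 for prostaglandin E2 (3.40 ± 0.391 CPM) were at least 4-fold higher. The lipolysis medians were 3.64, 4.54 and 4.52 against macrophages, myotubes and hepatocytes.

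Fatty acid synthesis genes were mostly higher and triglyceride synthesis genes were mixed. Of 15 fatty acid synthesis genes 10 were higher than in each other cell type, and the medians were 3.42, 2.89 and 1.21 in the same order. Fasn, the fatty acid synthase, had 1549, 1702 and 1931 CPM, 7.64-fold above hepatocytes, Acaca 678, 716 and 769 CPM, and Acacb, the mitochondrial acetyl-CoA carboxylase, 225, 251 and 252 CPM. Acly, which makes cytosolic acetyl-CoA, was nearer to hepatocytes (517 ± 21.7 against 362 ± 33.2 CPM), and Fads2 had 104 ± 11.8 CPM against 346 ± 38.3 CPM there. Of 15 triglyceride synthesis genes 8 were higher, while 4 were at least 2-fold lower than in hepatocytes, and Lpin2, a phosphatidate phosphatase, was lower than in each other cell type (18.4 ± 0.72 CPM against 24.5 ± 1.63 in myotubes and 751 ± 86.6 in hepatocytes). Gpd1, which supplies glycerol 3-phosphate, had 920, 915 and 972 CPM, 5.68-fold above hepatocytes. Dgat1 was 4.49-fold above hepatocytes, whereas Dgat2 had 156 ± 6.52 CPM in adipocytes and 183 ± 5.85 CPM in hepatocytes.

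Fatty acid uptake and binding genes were in part shared. Of 13 members 5 were higher than in each other cell type at any margin, beside 11.9% of all tested genes, and the medians were 0.88 against macrophages, 2.67 against myotubes and 3.31 against hepatocytes. Cd36 had 2055, 2069 and 1910 CPM, 3.29-fold above macrophages, while Fabp5 had 385 ± 34.7 CPM against 536 ± 12.9 CPM in macrophages. Vldlr was 6.34-fold above myotubes. In the insulin list 12 of 18 members were higher than in each other cell type (11.9% of all tested genes), 3 at least 4-fold (3.38%), and Akt1, a kinase of insulin signalling, was lower (147 ± 1.67 CPM against 178 ± 9.34 CPM in hepatocytes, the next lowest). Slc2a4, the insulin-regulated transporter GLUT4, had 89.3, 88.2 and 90.6 CPM against 37.9 ± 5.05 CPM in myotubes and at most 0.0865 CPM in the macrophage and hepatocyte libraries. Cav1, the caveolin of the plasma membrane, had 1509, 1654 and 1605 CPM, 12.2-fold above myotubes, and Insr stood at 188 ± 2.05 CPM beside 191 ± 26.1 CPM in hepatocytes.

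**Figure D4:**
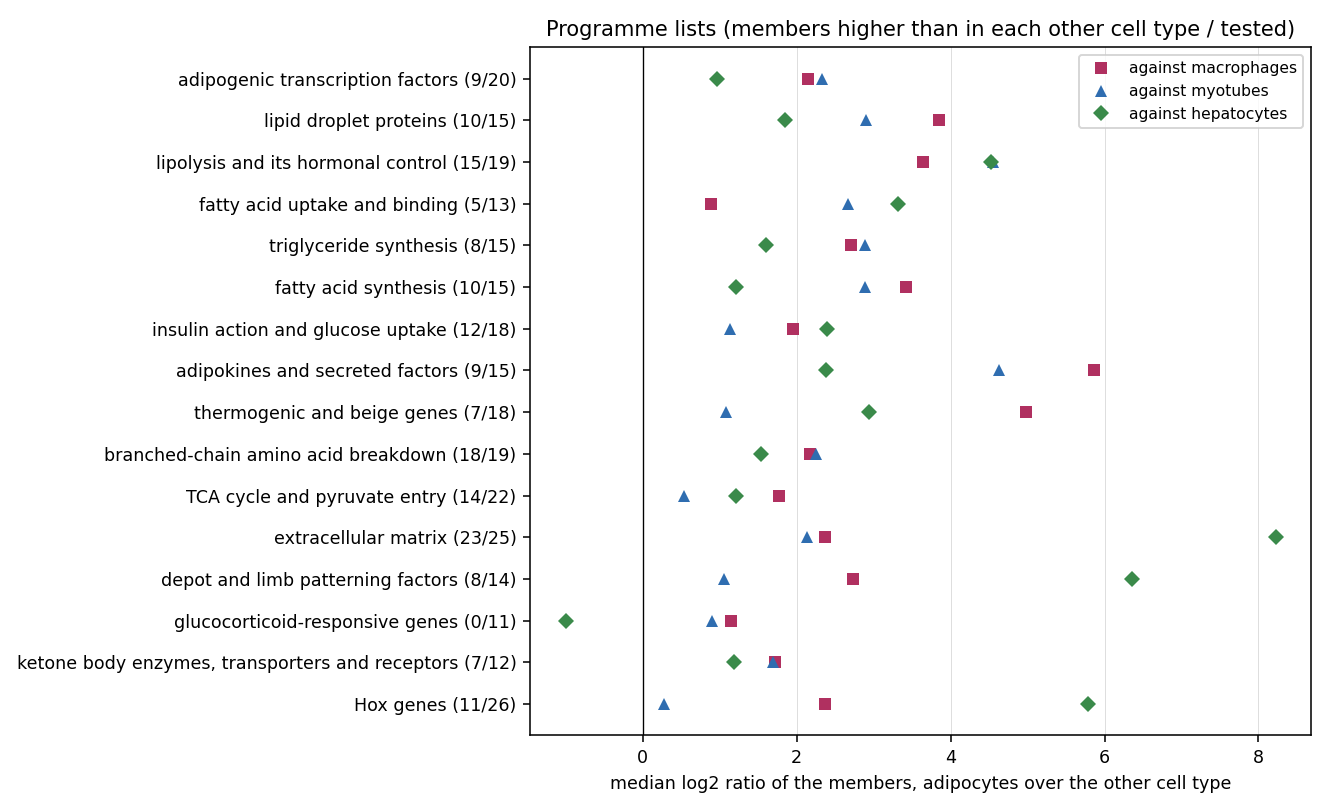
Median log2 ratio of adipocytes over macrophages, myotubes and hepatocytes for 16 gene lists (rows, with the members higher than in each other cell type and the members tested), with genes of no more than 3 counts in the other cell type set at 3. The branched-chain amino acid list has 18 of 19 members higher, and the glucocorticoid list is the row with a median below 0, against hepatocytes.

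Among the 16 programme lists, branched-chain amino acid breakdown had the largest share of members higher. All of its 19 genes but Bckdk, the kinase that switches the pathway off, were higher in adipocytes than in each other cell type, beside 11.9% of all tested genes, though only 5 reached 4-fold, of which Bckdha fell just short under some alternatives (margin of 1.98 with DESeq2). Bcat2, the mitochondrial transaminase, had 118, 174 and 172 CPM against 31.4 ± 1.41 CPM in macrophages, and Bckdha, of the dehydrogenase complex, had 184, 183 and 192 CPM against 46.1 ± 0.863 CPM in myotubes. Aldh6a1, of valine breakdown, had 374, 459 and 431 CPM, 5.47-fold above hepatocytes, and Pcca and Pccb, the subunits of propionyl-CoA carboxylase, were 4.71-fold and 4.30-fold above hepatocytes. Bckdk itself had 59.8, 59.2 and 59.2 CPM against 69.1 ± 5.51 CPM in myotubes. The medians of the list were 2.17, 2.25 and 1.53.

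In the TCA cycle list 14 of 22 members were higher than in each other cell type but none reached 4-fold. Cs, citrate synthase, had 916, 872 and 898 CPM, 2.17-fold above myotubes, and Pcx, pyruvate carboxylase, 590, 610 and 595 CPM, 2.84-fold above hepatocytes. Mdh2 was at 381 ± 27.3 CPM in adipocytes and 377 ± 30.1 CPM in myotubes. The median against myotubes was 0.53, the smallest of the 3. Pdk4, which slows pyruvate entry, differed between the adipocyte libraries at 688, 323 and 341 CPM, and its mean of 450 ± 206 CPM overlapped that of myotubes (437 ± 39.1 CPM).

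Secreted factors ranged from adipocyte-restricted to higher elsewhere. Beside Adipoq, Cfd and Retn, Angptl4, an inhibitor of lipoprotein lipase, had 790, 559 and 555 CPM, 5.22-fold above hepatocytes, and Apln, apelin, had 58.5, 53.3 and 39.0 CPM, 8.61-fold above hepatocytes. Lep, the gene of leptin, was near the limit of detection at 0.476, 1.55 and 0.887 CPM, and no count was seen in the 9 other libraries. Lep would not have passed the filter on low counts without treated libraries, so no p-value is given for it. Agt, angiotensinogen, was level with hepatocytes (132 ± 9.23 and 130 ± 5.27 CPM). Of 15 secreted factors tested, 9 were higher than in each other cell type, while 4 were at least 2-fold lower than in hepatocytes, beside 18.1% of all tested genes. The lowest log2 fold changes of the list against another cell type were -7.55 for Lcn2 and -5.72 for Fgf21.

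The thermogenic list gave 7 of 18 members higher than in each other cell type (11.9% of all tested genes) and 6 at least 4-fold (3.38%), while 7 members were at least 2-fold lower than in myotubes. Of these 6, Cox7a1, a cytochrome oxidase subunit (84.5 ± 7.86 CPM), fell short of 4-fold under some alternatives, with margins down to 1.65, and Cidea with the β-hydroxybutyrate libraries in place of the controls (1.84). Ucp1, the uncoupling protein of brown and beige fat, had 2.47, 0.689 and 1.10 CPM and no count in the other 9 libraries. Without treated libraries Ucp1 would not have passed the filter on low counts, so no p-value is given for it. Cidea had 12.0, 9.22 and 11.3 CPM, 6.18-fold above myotubes, and Elovl3 had 12.5, 9.74 and 10.4 CPM, 10.1-fold above myotubes. Prdm16, a regulator of the brown fate, was higher at 12.9 ± 0.845 CPM, 2.99-fold above macrophages, while Ppargc1a had 10.3 ± 0.942 CPM against 21.6 ± 2.53 CPM in myotubes. Zic1, a marker of classical brown fat, was at 0.258 ± 0.116 CPM.

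Extracellular matrix genes formed the other broad block. Of 25 members 23 were higher than in each other cell type and 12 at least 4-fold, with medians of 2.36 against macrophages, 2.13 against myotubes and 8.22 against hepatocytes. The basement membrane collagens Col4a1 (3282, 3299 and 3248 CPM) and Col4a2 (1462, 1473 and 1484 CPM) were 5.43-fold and 5.96-fold above myotubes. Col6a1, a collagen VI gene, had 1035, 1023 and 1012 CPM, 19.2-fold above macrophages. Lama4, a laminin chain, was 21.2-fold and Col15a1 19.3-fold above the next cell type. The fibrillar gene Col1a1 had 3414 ± 288 CPM in adipocytes and 1376 ± 46.8 CPM in macrophages, and Fn1, fibronectin, did not pass (4027 ± 215 against 3724 ± 195 CPM in myotubes). The macrophage libraries thus held stromal transcripts of their own, with Lox at 598 ± 10.5 and Postn at 752 ± 17.9 CPM, and their part in the comparison was not tested. Asking for a difference from 2 cell types in place of 3 relaxes the rule, and leaving out macrophages, a choice made after these values were seen, gave 743 genes higher and 349 lower. Leaving out myotubes gave 1045 and 211, and leaving out hepatocytes 927 and 331.

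Positional genes were nearest to the level of myotubes. In the Hox list 11 of 26 tested were higher than in each other cell type, and the median was 2.37 against macrophages, 0.27 against myotubes and 5.78 against hepatocytes. Hoxc8 had 41.7, 50.9 and 48.3 CPM, 5.71-fold above myotubes, and Hoxc10 was level with myotubes (53.3 ± 2.42 and 56.0 ± 5.01 CPM). The HoxB genes Hoxb2, Hoxb6, Hoxb7 and Hoxb8 were at least 4-fold higher than in each other cell type, at 3.36 to 6.72 CPM. Of 14 depot and limb factors tested, 8 were higher. Twist1 (50.9, 51.0 and 49.7 CPM) was 10.5-fold above myotubes, En1 was near the myotube level (14.2 ± 1.10 and 11.0 ± 1.02 CPM), and Tbx15 was lower than in myotubes (49.6 ± 0.354 against 310 ± 18.3 CPM).

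Of the genes that handle or sense ketone bodies and butyrate, 7 of 12 tested were higher and 2 lower than in each other cell type, beside 11.9% and 6.67% of all tested genes. Ffar2, a receptor for short-chain fatty acids, had 15.4, 19.5 and 17.6 CPM and at most 0.173 CPM in other libraries. Hcar2, the receptor of β-hydroxybutyrate, niacin and butyrate, had 18.9, 22.1 and 17.5 CPM, 12.5-fold above macrophages. Oxct1, which activates acetoacetate for use, had 389 ± 13.6 CPM against 275 ± 1.79 CPM in macrophages, and Slc16a1, the monocarboxylate transporter MCT1, 358, 243 and 248 CPM, 2.13-fold above hepatocytes. Bdh1, which interconverts β-hydroxybutyrate and acetoacetate, was lower than in each other cell type (0.888 ± 0.312 CPM against 1.62 ± 0.169 in myotubes and 26.7 ± 2.36 in hepatocytes, adjusted p = 0.0029). Slc16a6 was the other lower member.

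Of 11 glucocorticoid-responsive genes, 9 were neither higher nor lower than in each other cell type. Tsc22d3 (18.5, 23.4 and 21.3 CPM) and Dusp1 (21.9, 20.8 and 20.9 CPM) were lower than in each, beside 6.67% of all tested genes. The median was 1.15 against macrophages, with 6 members at least 2-fold higher and 3 lower, and 0.89 against myotubes, with 5 higher and 1 lower. Against hepatocytes it was -1.004, with 6 lower, and Errfi1 had 144 ± 22.2 CPM against 1099 ± 66.1 CPM there. Both cultures had received dexamethasone, but it was withdrawn overnight from the hepatocytes and days before the exposure from the adipocytes. The part of dexamethasone in either culture was not tested.

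Fewer genes were lower in adipocytes than in each other cell type. Among the 12 of largest margin with at least 10 CPM in each other cell type, Retreg1, a receptor for autophagy of the endoplasmic reticulum, had 2.38, 3.27 and 4.43 CPM against means of 108 ± 3.00, 116 ± 2.41 and 104 ± 6.46 CPM in macrophages, myotubes and hepatocytes. Cadm1, a cell adhesion molecule, had 4.63, 5.17 and 3.67 CPM against a lowest mean of 44.4 ± 5.73 CPM in myotubes. Cd9, a tetraspanin, had 18.6, 16.9 and 19.6 CPM against at least 140 CPM in every other library. The other members were Tmem37, St6gal1, Tbc1d16, Nipal3, Rin3, Ppfibp2, Cdk18, Rassf3 and Arhgef10l, at 2.24 to 25.4 CPM in adipocytes. Nnt, the mitochondrial transhydrogenase, was named after its values were seen: it had 13.5, 5.64 and 7.09 CPM against means of 38.7 to 51.6 CPM, and its margin was -1.91 without the replicate 2 library, short of the limit of 2. Another gene ID named Nnt lies in the same region and did not pass (6.03 ± 5.23 CPM in adipocytes, adjusted p = 0.26), and reads can be split between the 2, so the level of each is uncertain. C57BL/6J mice carry a deletion in Nnt and C57BL/6N mice do not. The substrain of the adipocyte donors is not given in the sources used here, so substrain and cell type cannot be told apart for this gene.

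Some genes were at least 4-fold higher in adipocytes and in a single other cell type than in both remaining cell types. This held for 348 genes shared with hepatocytes (2.27% of those tested), 464 shared with myotubes (3.02%) and 159 shared with macrophages (1.04%). With the β-hydroxybutyrate libraries in place of the controls the last count was 296. These sets overlap the 518 higher genes, which hold 38, 70 and 20 of their members, among them Lpl and Ccl11. The hepatocyte set took between 7.80 and 8.17% of adipocyte counts and 7.17 to 7.33% of hepatocyte counts. It held plasma proteins: Lrg1 had 535, 573 and 606 CPM in adipocytes and 544 ± 26.4 CPM in hepatocytes, and C4b, which shares sequence with its neighbour C4a, had 1115, 1133 and 1142 CPM beside 1019 ± 103 CPM. Both were under 0.5 CPM in every macrophage and myotube library. Steap4, a metalloreductase, had 645 ± 11.7 and 676 ± 49.4 CPM, and Rbp4, the retinol carrier, 370 ± 72.0 and 1281 ± 123 CPM. Angptl8, Cyp2e1, Iigp1 and Mup18 completed the 8 of largest margin, and Mup18 belongs to a family of near-identical genes, so its 11.8 ± 2.80 CPM is uncertain.

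The myotube set took between 1.55 and 1.63% of adipocyte counts and included Cox8b, a muscle and brown fat subunit of cytochrome oxidase (24.4, 30.5 and 29.9 CPM in adipocytes and 45.7 ± 6.05 in myotubes), with Slc2a4, En1, B3galt2, Apod, Tmem182, Ccl11 and Cilp. The macrophage set took between 2.53 and 2.63% of adipocyte counts and held Lpl, Abcg1, a sterol exporter (362, 238 and 260 against 147 ± 4.03 CPM), Adra1a, Folr2, Fmod, Itga11, Ifi202b and Sp100. In adipocytes the macrophage markers stood at 1.30 to 41.5% of their macrophage level with a median of 3.88%, and the part of macrophages in the shared set was not tested.

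The upstream windows were searched for the C/EBP motif and for a direct repeat of AGGNCA spaced by 1 base, the kind of element that PPARγ binds with RXR. RefSeq promoters matched 343 of the 518 higher genes, with 431 windows of 250 bases. The C/EBP letters were in 12.1% of them, beside 7.89% of the 14665 windows of all tested genes. The share was 16.5% for genes lower in adipocytes, 17.3% for the macrophage set, 15.0% for the hepatocyte set and 7.04% for the myotube set, so the higher genes were not the set with the largest share. The direct repeat was in 4 of the 431 windows (0.928%, in Dcst2, Lctl, Pcolce and Slc13a4), beside 0.293% for all tested genes. No test was made on these shares.

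Among the 3 adipocyte libraries, replicate 1 stood apart. The chi-square of the counts per degree of freedom, about 1 for sampling noise alone, was 16.3 between replicates 1 and 2, 13.2 between 1 and 3, and 3.50 between 2 and 3, and it ran from 2.65 to 15.7 between replicates of the other cell types. Of the 316 higher genes with at least 10 CPM, the largest library exceeded the smallest by a median of 1.19-fold, and 37 genes (11.7%) exceeded 1.5-fold, beside 204 (2.29%) of the 8918 tested genes at that level. Of the 204, replicate 1 was highest in 140 and lowest in 62. The 12 protein-coding genes of largest spread were picked for it after the values were seen, and 9 of them were highest in replicate 1. They included interferon-induced genes: Ifit1 had 217, 87.0 and 107 CPM, Gbp6 215, 98.5 and 96.6 CPM, and Oasl2 176, 88.8 and 97.2 CPM. Derl3, Serpina3c and A530016L24Rik went the other way, with 23.9, 50.0 and 44.2 CPM for Derl3. All 11 proliferation genes were lowest in replicate 1, with Mki67 at 18.4, 42.2 and 43.4 CPM, although all 11 were lower in adipocytes than in macrophages.

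**Figure D5:**
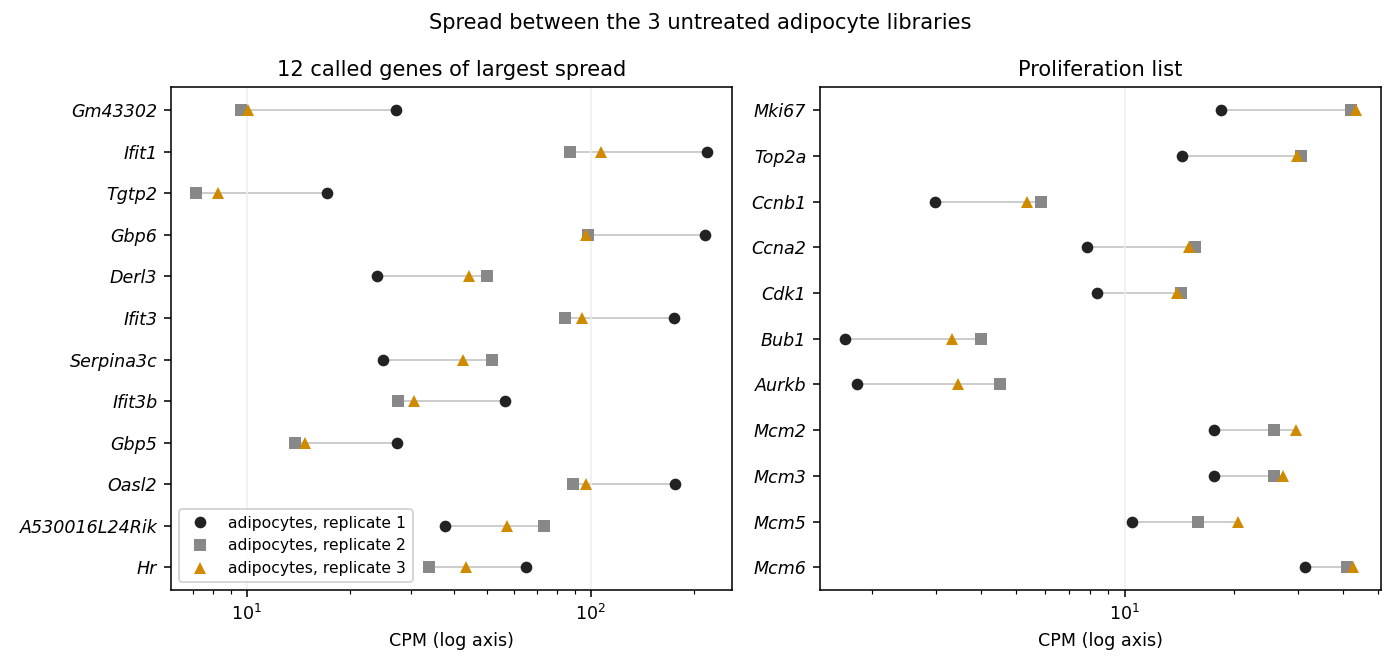
CPM (log axis) of the 12 higher genes of largest spread and of the 11 proliferation genes in the 3 untreated adipocyte libraries, with a symbol per library and a line over their range. Replicate 1 is highest for 9 of the 12 genes on the left, such as Ifit1 at 217 CPM, and lowest for all 11 proliferation genes.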

How the data were processed

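RNA-seq libraries of mouse primary cells were quantified by the authors with Salmon 1.2.1 on a GRCm38.p6 transcriptome and summarised to genes with tximport. The deposited table holds estimated counts per gene. The methods name a scaling by transcript length and library size, but library totals differ and 55.6% of the values above 0 are exactly whole, so the values were taken as unscaled; differences in transcript length between cell types are then not corrected. They were rounded to whole numbers. Symbols and positions came from a GRCm38.p6 annotation (54094 of 54347 genes matched). The members and gene lists were chosen with earlier results of these data known.

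Genes above 1 CPM in at least 6 of the 36 libraries (15340) were fitted in edgeR 4.0.16 (R 4.3.3) with TMM factors, a mean for each of the 12 groups and the quasi-likelihood test, with Benjamini-Hochberg adjustment. Reported CPM values are counts scaled to the TMM-adjusted library total, and percentages of counts use the unadjusted totals. For a difference from each other cell type, the largest of the 3 p-values was adjusted, and a margin of 2 on the log2 scale was asked. Sharing with a cell type took the largest p of the 4 contrasts. All p-values named "adjusted" come from these fits.

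Named genes were protein-coding: the 4 markers, the 20 of largest margin and 15 of highest level among higher genes, 12 lower genes, 8 shared genes per cell type, and list members. The result of 1 list member is not reported here. The alternatives were limma-voom 3.58.1, DESeq2 1.42.0, other scalings, filters and thresholds, leaving out libraries, and a replicate block. Replicate numbers did not pair the libraries: deviations of same-numbered libraries correlated between -0.0462 and 0.0451 over 18 pairs of libraries from different cell types. The statistics were tested on simulated data. Library totals of 18556853 to 23180421 in the controls set the precision of low levels.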

Additional observations from a re-analysis of the deposited data

How the results depend on the processing

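Counts of genes moved by over 1.5 times mainly with the threshold. With no limit on the fold, 11892, 11989 and 12438 genes differed from macrophages, myotubes and hepatocytes, 1828 were higher and 1023 lower than in each, and 1077, 1537 and 1492 were shared with macrophages, myotubes and hepatocytes. At a log2 limit of 1 the last 5 counts were 1026, 234, 456, 902 and 640. At a limit of 3 the 8 counts were 2252, 2291, 3121, 319, 27, 73, 245 and 222. With bOHB libraries in place of controls, 296 genes were shared with macrophages, 141 of them among the 159. With 1 cell type not compared, chosen after seeing the data, which relaxes the rule, 349 genes were lower without macrophages, 1045 were higher and 211 lower without myotubes, and 927 were higher and 331 lower without hepatocytes.

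Without a replicate the counts ran from 6212 to 6306, 6065 to 6214 and 6782 to 6868 for the pairwise comparisons, 511 to 524 higher, 75 to 80 lower, and 150 to 179, 451 to 473 and 337 to 351 shared with macrophages, myotubes and hepatocytes. The replicate block, for numbers that do not pair the libraries, gave 517 higher, 78 lower, and 161, 466 and 350 shared. DESeq2, limma-voom, other scalings and other filters kept each count within 1.5 times. Library totals alone shifted the median of all genes against hepatocytes to 0.28 on the log2 scale. Margins were followed for the named genes called higher or lower at 4-fold or picked as shared. None of these genes turned direction, and margins of Pdgfrb, Emcn, Myh11, Cidea, Cox7a1, Bckdha, Nnt and Ffar4 fell short of 2 under at least 1 alternative. Named genes that were not called, such as Mdh2 and Insr, were not followed. Causes were not tested. Levels near 0 are limited by depth, where 3 counts over 3 adipocyte libraries are 0.0429 CPM.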
